A study of Mus musculus with 4 samples.

Results

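The 10 genes described here are protein-coding genes of the mouse mitochondrial genome that encode subunits of the respiratory chain and of ATP synthase. They were taken by symbol from the 56691 genes listed in each count table, and all 10 symbols were found. The mitochondrial genome has 13 protein-coding genes, and the 3 that are not members are mt-Nd3, mt-Nd4l and mt-Atp8. Poly(A) RNA sequencing was carried out on Ter119+ cells of bone marrow, 2 libraries from mice with Med16 knocked out (Med16 KO) and 2 from mice with floxed Med16 alleles (Med16 fl/fl), all with 3 weeks as their time point. The genotypes are those of the labels, while the titles of the KO libraries carry DK, a mark whose meaning is not known here. Ter119 marks cells of the erythroid lineage, and Med16 is part of Mediator, which links transcription factors to RNA polymerase II. The comparison addresses how loss of Med16 changes the RNA of the erythroid fraction. The labels give neither the deleter strain nor the age of the mice, and do not say what the 3 weeks are counted from. Nor do they tie a library to an animal, so p values here measure a spread between libraries that may be technical.

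The libraries held 6749196 to 7216333 counts assigned to genes. At these similar depths, genes with at least 1 count numbered 16892 and 16479 in the KO libraries, against 18947 and 19016 in the fl/fl libraries. Med16 itself had 16 and 30 counts in the KO libraries, against 164 and 127 in the fl/fl libraries. Of 13 erythroid markers, none was at 0, and their summed level was 29381 and 29518 CPM in KO, against 36678 and 36660 CPM in fl/fl (CPM, depth-scaled counts, here with library sizes adjusted by the trimmed mean of M values, TMM). Markers of other marrow cells were present as well: 15 neutrophil markers summed to 21002 and 21448 CPM in KO, against 15165 and 14996 CPM in fl/fl, and 13 of them rose while none fell. Of 11 tested megakaryocyte and platelet markers 10 rose by edgeR and 5 by DESeq2. This list was low, at 246 and 241 CPM in sum in KO, against 113 and 98.5 CPM in fl/fl. Monocyte and macrophage markers summed to 3260 and 3311 CPM in KO, against 2424 and 2350 CPM in fl/fl, with 4 of 13 higher (3 by DESeq2) and 1 lower. Of stromal and endothelial markers 2 of 4 tested rose, of 10 B lineage markers 1 rose, and of 5 T and NK markers none was called by edgeR or DESeq2 (1 at an unadjusted p under 0.05). Of the erythroid markers 12 fell, and Alas2, for the first enzyme of haem synthesis in red cells, rose. The part of these shifts, and of the number of genes detected, in the results on mitochondrial genes was not tested, and in bulk RNA a change in the number of cells of a type and a change in RNA per cell cannot be told apart.

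The mitochondrial genome is a small circle that is copied into RNA by its own polymerase, POLRMT, and not by RNA polymerase II. Both strands are transcribed as long precursors, which are cut mainly at tRNA genes into separate mRNAs, rRNAs and tRNAs, and most mRNAs then receive a short poly(A) tail. The proteins are made inside the organelle and join subunits that are encoded in the nucleus: mt-Nd genes in complex I (NADH dehydrogenase), mt-Cytb in complex III, mt-Co genes in complex IV (cytochrome c oxidase) and mt-Atp6 in complex V (ATP synthase). Complex II has no mitochondrially encoded subunit. Maturing red cells use mitochondria for haem synthesis and clear them at the reticulocyte stage.

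Several members share their sequence with copies of mitochondrial DNA in the nuclear genome. The members were compared with all nuclear transcripts of GENCODE M21 (build GRCm38, while the counts were made on GRCm39, so no coordinates are given). For mt-Co2, mt-Co3 and mt-Atp6, over 99% of all 50-base windows were found letter for letter in a nuclear transcript: 100% for mt-Co2, 99.9% for mt-Co3 and 99.5% for mt-Atp6. Their best copies are the pseudogenes Gm28661, Gm28437 and Gm10925 on chromosome 1, which align to them over 681, 783 and 678 bases with 0 mismatches. They belong to a row of 7 pseudogenes on chromosome 1 that share such windows with mitochondrial genes, with 0 other annotated genes between them. The first 90 bases of each mRNA and of its nuclear copy, from GENCODE M21, are shown because a read that lies wholly within them matches both places. They hold no capital letters because no base differs.
mt-Co2: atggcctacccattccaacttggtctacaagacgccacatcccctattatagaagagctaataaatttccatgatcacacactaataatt
Gm28661: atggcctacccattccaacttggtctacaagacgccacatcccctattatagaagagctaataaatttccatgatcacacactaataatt
mt-Co3: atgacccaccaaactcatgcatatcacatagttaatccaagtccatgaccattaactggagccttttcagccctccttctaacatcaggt
Gm28437: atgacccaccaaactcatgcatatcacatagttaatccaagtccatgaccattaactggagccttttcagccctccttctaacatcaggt
mt-Atp6: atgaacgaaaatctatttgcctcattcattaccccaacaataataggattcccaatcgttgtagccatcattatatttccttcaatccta
Gm10925: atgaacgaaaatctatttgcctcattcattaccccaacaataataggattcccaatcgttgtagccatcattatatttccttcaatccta

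The other members shared less of their sequence with annotated nuclear transcripts, and nuclear DNA outside these was not searched. No 50-base window of mt-Nd1, mt-Nd6 or mt-Cytb was found in a nuclear transcript, 7.61% were for mt-Nd5 and 8.19% for mt-Nd2, 51.1% for mt-Co1 and 62.2% for mt-Nd4. Over 100-base windows these shares were 0% for mt-Nd5, 3.19% for mt-Nd2, 30.8% for mt-Co1 and 60.8% for mt-Nd4. The read length is not given in the sources used here. The best copies of mt-Cytb and mt-Nd6, Gm11410 and Gm11408 on chromosome 4, were 92.9% and 93.6% identical to them. Their aligned stretches are shown as a contrast, from base 2 to 91 for mt-Cytb and from base 1 to 90 for mt-Nd6, with capitals at the 5 and 3 bases that differ.
mt-Cytb: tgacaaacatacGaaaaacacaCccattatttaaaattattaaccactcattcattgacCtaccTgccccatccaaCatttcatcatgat
Gm11410: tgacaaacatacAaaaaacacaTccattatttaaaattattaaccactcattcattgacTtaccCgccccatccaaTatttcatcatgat
mt-Nd6: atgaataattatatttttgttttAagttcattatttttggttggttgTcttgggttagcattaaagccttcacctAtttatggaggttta
Gm11408: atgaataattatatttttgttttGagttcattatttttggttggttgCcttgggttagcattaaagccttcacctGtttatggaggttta

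The measured level per length was low for the same 3 members. Per kb of length, mt-Co1 had 3023 CPM in KO and 3173 CPM in fl/fl, mt-Nd1 971 and 705 CPM, and mt-Cytb 855 and 792 CPM, as means of 2 libraries. The members mt-Nd2, mt-Nd4, mt-Nd5 and mt-Nd6 lay between 394 and 447 CPM per kb in KO and between 328 and 367 CPM per kb in fl/fl, and the libraries of neighbours in this order overlapped. The order of the next genes up differed by genotype: mt-Nd1, with 949 and 992 CPM per kb, was above mt-Cytb, with 808 and 901, in KO, and below it in fl/fl, with 687 and 723 against 773 and 810. The level was 19.4 CPM per kb in KO and 18.2 CPM per kb in fl/fl for mt-Co2, 9.0 and 7.4 for mt-Atp6, and 7.77 and 7.05 for mt-Co3. These 3 genes together took 0.00256% and 0.00262% of assigned counts in the KO libraries, against 0.00195% and 0.00254% in the fl/fl libraries. Of all reads listed, 24.3% and 23.6% had several alignments in KO, against 26.4% and 25.3% in fl/fl; how many of them are mitochondrial was not measured. The nuclear copies had counts of the same order. Gm28661, the copy of mt-Co2, had 61 and 38 in KO, against 53 and 47 in fl/fl. Gm10925, the copy of mt-Atp6, had 60 and 76 in KO, against 60 and 55 in fl/fl, more than mt-Atp6 in every library. Gm28437, the copy of mt-Co3, had 138 and 18 in KO, against 26 and 167 in fl/fl, and exceeded mt-Co3 in KO library 1 and fl/fl library 2. The levels of mt-Co2, mt-Co3 and mt-Atp6 in these tables are uncertain, as are those parts of mt-Co1 and mt-Nd4 that copies share. The part of shared sequence in the low counts was not tested.

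**Figure D1:**
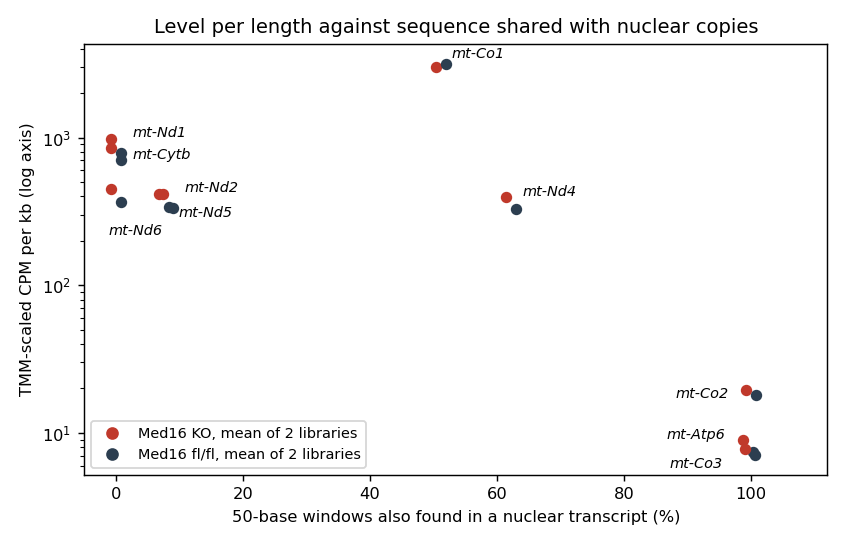
Level of each member per kb of length (TMM-scaled CPM per kb, log axis, mean of the KO libraries left and of the fl/fl libraries right of each position) against the share of its 50-base windows that also occur in a nuclear transcript. The 3 members at or above 99.5% lie below 20 CPM per kb, and the other 7 above 300 CPM per kb.

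All 5 complex I members were called higher in Med16 KO, and their libraries did not overlap between genotypes. Of all genes tested, 8.50% were called higher, and 29.4% were higher in KO without overlap. The mRNA of mt-Nd1, which encodes a membrane subunit at the quinone-binding site, had 908 and 950 CPM in KO, against 658 and 692 CPM in fl/fl. Its log2 fold change of 0.46 (SE 0.05) was the largest of the members (adjusted p = 3.3e-06; edgeR's quasi-likelihood F test, with adjustment after Benjamini and Hochberg). The mRNA of mt-Nd2, a subunit of the proton-pumping membrane arm, had 419 and 446 CPM in KO, against 337 and 353 CPM in fl/fl (0.33, SE 0.06, adjusted p = 0.00077). Both KO libraries of each gene lay above both fl/fl libraries. In map order these genes come first after the rRNAs.

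The 3 complex I members later in map order had smaller fold changes than mt-Nd1 and mt-Nd2, a difference that was not tested. The gene mt-Nd4, for another membrane-arm subunit, had 528 and 557 CPM in KO, against 430 and 474 CPM in fl/fl, a log2 fold change of 0.26 (SE 0.06, edgeR adjusted p = 0.0041). The gene mt-Nd5, which encodes the distal proton-pumping subunit, had 718 and 791 CPM in KO, against 577 and 665 CPM in fl/fl (0.28, SE 0.06, adjusted p = 0.0054). Both kept the genotypes apart, but for mt-Nd5 the gap within each genotype was wider than that between the nearest KO and fl/fl libraries. The gene mt-Nd6 is the only member read from the opposite strand and overlaps mt-Nd5 by 14 bases. It had 212 and 252 CPM in KO, against 187 and 194 CPM in fl/fl (0.28, SE 0.08, edgeR adjusted p = 0.024). Here the gap within KO was wider than that between the nearest KO and fl/fl libraries. The strand setting of the counting is not given, so reads of mt-Nd6 cannot be told from antisense reads of the other strand. In human cells this mRNA is known to lack a poly(A) tail, and the libraries were made from poly(A) RNA.

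These 5 were the only calls among the 10 members, all of which passed the filter on low counts. None was called lower by edgeR or DESeq2, and at an unadjusted p under 0.05 only mt-Co1 was. Over all 13052 genes tested, 8.50% were called higher and 9.89% lower. The median log2 fold change of the members was 0.27, and that of all genes tested 0.02. Genotypes did not overlap for 6 members, the 5 above and mt-Co1. Over all genes tested this held for 57.6%, 29.4% higher and 28.2% lower in KO. Without fl/fl library 1, 2 members were called higher (mt-Nd1 and mt-Nd2) and 1 lower (mt-Co1); mt-Nd4 was then at 0.18 (adjusted p = 0.14), mt-Nd5 at 0.17 (0.10) and mt-Nd6 at 0.24 (0.19). The call of mt-Nd6 also ended without fl/fl library 2 at 0.30 and without KO library 2 at 0.14, and that of mt-Nd5 by DESeq2 at 0.27 (adjusted p = 0.096). With a coefficient of variation of 0.2 between libraries assumed in place of the estimate, 0 of the 5 were called. With a GC content offset all 5 kept their call at larger log2 fold changes, 0.69 for mt-Nd1, 0.57 for mt-Nd2, 0.51 for mt-Nd4, 0.52 for mt-Nd5 and 0.53 for mt-Nd6.

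**Figure D2:**
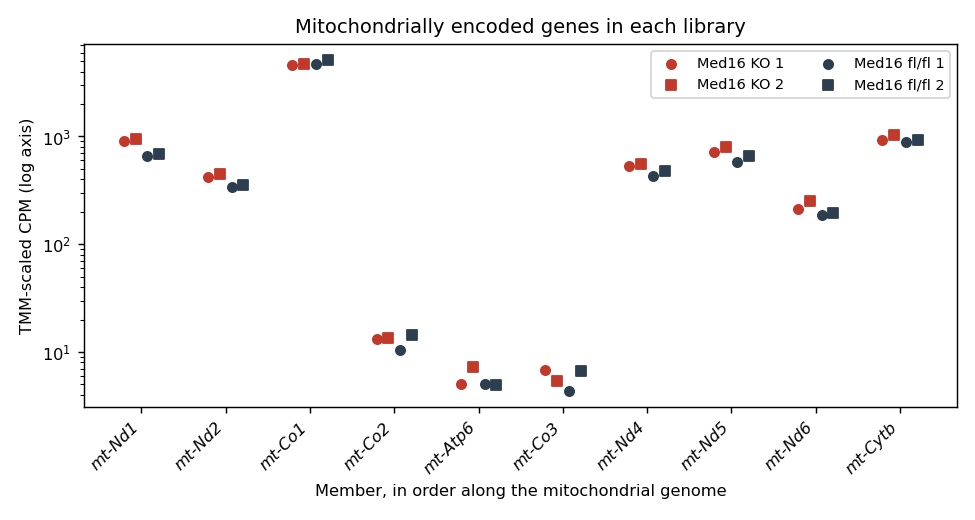
TMM-scaled CPM (log axis) of each member in the 4 libraries, KO in red to the left of fl/fl in dark blue, with circles for library 1 and squares for library 2. The KO points lie above the fl/fl points for mt-Nd1, mt-Nd2, mt-Nd4, mt-Nd5 and mt-Nd6, below them for mt-Co1, and among them for the other 4.

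The members of complexes III, IV and V did not pass the threshold. The gene mt-Co1, which encodes the catalytic subunit of cytochrome c oxidase, was the most counted member, with 32881 and 32101 counts in KO, against 33452 and 34950 in fl/fl. As CPM these were 4617 and 4722 in KO, against 4736 and 5068 in fl/fl, with a log2 fold change of -0.07 (SE 0.03, edgeR adjusted p = 0.155). The gene mt-Cytb, for cytochrome b of complex III, had 924 and 1031 CPM in KO, against 884 and 927 CPM in fl/fl (0.11, SE 0.05, adjusted p = 0.153). Its groups overlapped, since KO library 1 was below fl/fl library 2. The results for both genes moved with the processing. With a GC content offset mt-Co1 was at 0.14 (edgeR adjusted p = 0.0019) and mt-Cytb at 0.33 (0.00022), both called higher. With a transcript length offset mt-Co1 was called lower at -0.15 (0.0043). With library size as the only scaling mt-Cytb was called higher at 0.16 (edgeR adjusted p = 0.027), and without KO library 1 it was at 0.17. The GC content of the members was 34.1% to 39.9%.

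The 3 members with identical nuclear copies had few counts and wide intervals. The gene mt-Co2, for the subunit that receives electrons from cytochrome c, had 94 and 91 counts in KO, against 74 and 99 in fl/fl, and the 95% interval of its log2 fold change ran from -0.48 to 0.67. The gene mt-Co3, a structural subunit of the same complex, had 48 and 37 counts in KO, against 31 and 46 in fl/fl (-0.72 to 1.00). The gene mt-Atp6, part of the proton channel of ATP synthase, had 36 and 49 counts in KO, against 36 and 34 in fl/fl (-0.58 to 1.16). These intervals include both no difference and changes as large as that of mt-Nd1.

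**Figure D3:**
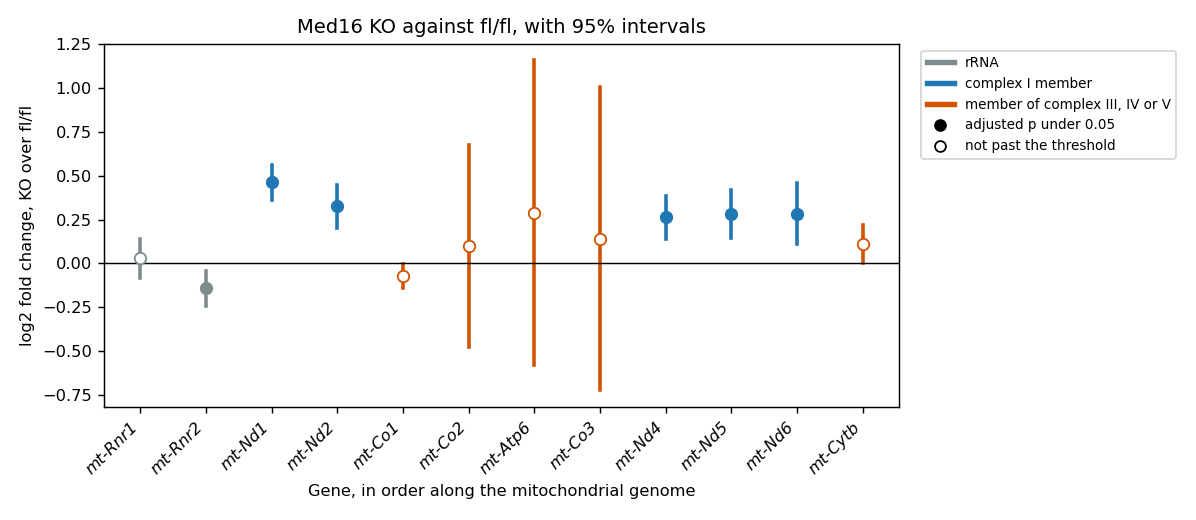
Log2 fold change, KO over fl/fl, of the mitochondrial rRNAs and the 10 members in their order along the genome, with 95% intervals from the edgeR standard error as bars; filled points passed an adjusted p of 0.05. The 5 complex I members (0.26 to 0.46) are filled and above 0, mt-Rnr2 (-0.14) is filled and below it, and mt-Co2, mt-Co3 and mt-Atp6 have the widest intervals.

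As a share of assigned counts, the members took 0.856% (Wilson 95% interval 0.849 to 0.863) and 0.884% (0.877 to 0.891) in the KO libraries. In the fl/fl libraries they took 0.766% (0.760 to 0.773) and 0.822% (0.815 to 0.828). The mean share was 1.10 times as large in KO, and the difference between genotypes, 0.870% ± 0.0198 in KO against 0.794% ± 0.0392 in fl/fl (SD, n = 2 each), came with an exact two-sided permutation p = 0.333, the smallest that 2 against 2 libraries allow. With TMM-scaled library sizes the genotypes overlapped, since KO library 1 was below fl/fl library 2. The members then summed to 8352 and 8775 CPM in KO, against 7828 and 8398 CPM in fl/fl. Most of the difference in share of assigned counts lay in complex I. Its 5 members took 0.285% and 0.302% of assigned counts in KO, against 0.214% and 0.233% in fl/fl, a ratio of 1.31 (exact p = 0.333). The 3 members of complex IV took 0.475% and 0.478% in KO, against 0.465% and 0.498% in fl/fl, and these overlapped. Nearly all of the complex IV counts were of mt-Co1.

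In the make-up of the member counts, the shares of mt-Co1 and of the 5 complex I members did not overlap between genotypes. Those of the other members did. The share of mt-Co1 was 55.3% and 53.8% of member counts in KO, against 60.5% and 60.3% in fl/fl. The share of mt-Nd1 was 10.9% and 10.8% in KO, against 8.40% and 8.23% in fl/fl. All 5 complex I members had higher shares in both KO libraries than in both fl/fl libraries, while the shares of mt-Cytb, 11.1% and 11.7% in KO against 11.3% and 11% in fl/fl, overlapped. For each of the 10 shares the exact permutation test could not go below p = 0.333 (Benjamini-Hochberg adjusted p = 0.556 for the 6 shares that did not overlap). Such ratios between members do not depend on how the libraries were scaled: mt-Nd1 had 19.7 and 20.1 counts per 100 counts of mt-Co1 in KO, against 13.9 and 13.6 in fl/fl, and the complex I members together 60.3 and 63.4, against 46.2 and 46.9.

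Since shares add up to a fixed total, they were also taken without mt-Co1. With mt-Co1 left out of the sum, 2 members, mt-Nd1 and mt-Nd2, still had higher shares in both KO libraries. The share of mt-Nd1 in this sum was 24.3% and 23.4% in KO, against 21.3% and 20.8% in fl/fl, and that of mt-Nd2 was 11.2% and 11%, against 10.9% and 10.6%. For mt-Nd2 the nearest KO and fl/fl libraries lay closer together than the libraries within either genotype. The share of mt-Cytb moved the most, with 24.8% and 25.4% in KO, against 28.6% and 27.8% in fl/fl, and was lower in both KO libraries. The shares of mt-Nd4, mt-Nd5 and mt-Nd6 then overlapped between genotypes. In an edgeR fit scaled to the summed member counts, the same 2 genes were called. Their log2 fold changes were 0.38 for mt-Nd1 (edgeR adjusted p = 0.00052) and 0.25 for mt-Nd2 (0.047). That sum includes mt-Co1 and the genes tested, so the fit mirrors the shares with mt-Co1 and cannot check those without it. Under that scaling 17.9% of all genes tested were called in either direction.

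**Figure D4:**
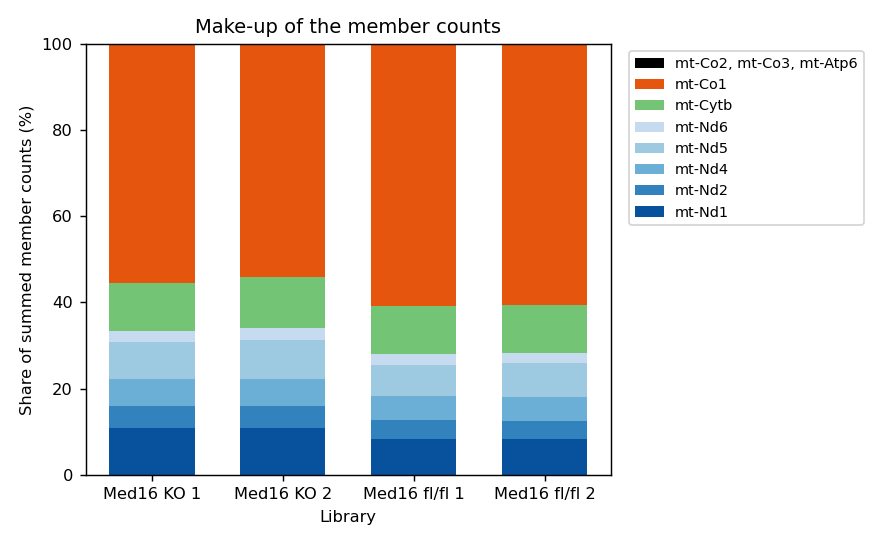
Share of each member in the summed member counts (%) for the 2 KO libraries on the left and the 2 fl/fl libraries on the right. The mt-Co1 segment is smaller in KO (53.8% and 55.3%) than in fl/fl (60.3% and 60.5%), the blue complex I segments are larger, and mt-Co2, mt-Co3 and mt-Atp6 form a sliver at the top.

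The rRNAs of the mitochondrial ribosome, which come from the same strand as most members, were not called higher. The small-subunit rRNA mt-Rnr1 had 553 and 598 CPM in KO, against 551 and 578 CPM in fl/fl, with a log2 fold change of 0.03 (SE 0.05, edgeR adjusted p = 0.77), but was called higher with a GC content offset at 0.27 (adjusted p = 0.0012). The large-subunit rRNA mt-Rnr2 had 1061 and 1175 CPM in KO, against 1245 and 1222 CPM in fl/fl, and fell by 0.14 on the log2 scale (SE 0.05, adjusted p = 0.045). Its call ended when fl/fl library 1 (-0.14) or KO library 1 (-0.08) was left out and without TMM (-0.09), and its sign turned with a GC content offset (0.10, adjusted p = 0.17). Members had 5.17 and 4.95 counts per count of rRNA in KO, against 4.36 and 4.67 in fl/fl (exact permutation p = 0.333). Poly(A) selection captures rRNA only in part, so these ratios are not the ratio in the cell.

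The other genes of the mitochondrial genome were nearly uncounted. Of the 22 tRNA genes, 8 had at least 1 count, and the most abundant, mt-Tp, had 170 and 145 counts in KO, against 116 and 155 in fl/fl. The 3 protein-coding genes that are not members had few or no counts: mt-Nd3 had 5 and 0 in KO, against 0 and 2 in fl/fl, mt-Nd4l had 3 and 1, against 0 and 1, and mt-Atp8 had none in any library. Of their 50-base windows, 98.0% for mt-Nd3 and 98.8% for mt-Nd4l occur in a nuclear transcript. For mt-Atp8, 0% did. Nuclear DNA outside annotated transcripts was not searched, so 0% does not show that a nuclear copy is absent.

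The nuclear subunits of the same complexes mostly did not pass the threshold. Of 71 tested genes of complexes I, III, IV and V, 6 were higher and none lower, 8.45% against the 8.50% of all genes called higher, with a median log2 fold change of 0.10. In total the ratio of members to nuclear partners overlapped between genotypes, with 1.51 and 1.58 member CPM per CPM of nuclear subunits in KO, against 1.5 and 1.61 in fl/fl. Within complex I the ratio was 2.19 and 2.47 in KO, against 1.85 and 2.07 in fl/fl, and within complex IV it was 4.74 and 4.65, against 4.95 and 5.38. Both ratios kept the genotypes apart, in opposite directions, at the smallest p of 0.333 that the exact permutation test allows. The complex IV ratio rests almost wholly on mt-Co1. This gene gave 32881 of the 33023 complex IV member counts in KO library 1 and 33452 of 33557 in fl/fl library 1. Of its 50-base windows, 51.1% occur in a nuclear transcript, so the ratio is not a measure of complex IV mRNA as a whole.

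By complex, 1 of 36 nuclear complex I subunits rose, Ndufb7, with 70.2 ± 3.32 CPM in KO and 53.3 ± 2.54 CPM in fl/fl (log2 fold change 0.40, SE 0.12, edgeR adjusted p = 0.030; SD, n = 2 each). The flavoprotein genes Ndufv3 and Ndufv1 were at 0.56 and 0.12 and not past the threshold. None of 4 complex II genes was called, with Sdhd, Sdhb and Sdha at 0.14, 0.10 and -0.03, and none of 9 complex III genes, also by DESeq2, with 0 and 1 at an unadjusted p under 0.05. In complex III, Uqcrc1 was at 0.20 and Uqcrb was at -0.39. In complex IV, 1 of 11 rose, Cox4i1, at 0.22 (edgeR adjusted p = 0.048, ended by several other scalings), while Cox5a was at 0.30 without a call. In complex V, 4 of 15 rose, among them Atp5g2, for the membrane ring, at 0.67 (adjusted p = 0.0097) and Atp5a1, for the catalytic head, at 0.17 (0.023). The most abundant, Atp5b, was at 0.03 without a call. Of the 71 genes, 0 were called higher when fl/fl library 2 was left out, 1 when fl/fl library 1 was, and 2 under a GC content offset. Leaving out KO library 1 gave 9 higher and 4 lower calls, and leaving out KO library 2 gave 10 and 1.

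Of 19 genes that copy, transcribe and maintain mitochondrial DNA, 0 were called by edgeR or DESeq2 and 0 had an unadjusted p under 0.05. Tfam, which packages mitochondrial DNA and starts its transcription, had 18.4 ± 5.58 CPM in KO and 24.8 ± 1.03 CPM in fl/fl (log2 fold change -0.43, edgeR adjusted p = 0.22). Top1mt and Polg, the mitochondrial DNA polymerase gene, were at 1.01 and -0.07 without a call. Of 24 genes of mitochondrial RNA processing and decay, 2 were higher (8.33%) and 1 lower (4.17%), against 8.50% and 9.89% of all genes tested. Ptcd1, which encodes a pentatricopeptide protein of mitochondrial RNA, fell by 0.56 (adjusted p = 0.0089), and Tbrg4 rose by 0.50 (0.018) on the log2 scale. When either fl/fl library was left out, 0 genes of this list were called. Lrpprc, which stabilizes mitochondrial mRNAs and supports their poly(A) tails, had 63.8 ± 6.87 CPM in KO and 80.3 ± 0.968 CPM in fl/fl, at -0.33 on the log2 scale and not called by edgeR (adjusted p = 0.058); DESeq2 called it lower.

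Of 21 translation and insertion factors, 2 were higher (9.52%) and 1 lower (4.76%), against 8.50% and 9.89% of all genes tested. Tufm, the mitochondrial elongation factor gene, rose by 0.50 on the log2 scale (edgeR adjusted p = 0.031). Mtrf1l, a release factor gene, fell by 0.88 (0.033), while Gfm2 was at 0.10 without a call. Of 18 genes that mark mitochondrial content, 2 were higher (11.1%) and none lower. The prohibitin gene Phb2 rose by 0.37 (adjusted p = 0.0076) and Tomm40, of the outer membrane import pore, by 0.47 (0.049), and the adenine nucleotide carrier gene Slc25a5 was at 0.14 without a call. Leaving out either fl/fl library ended every call in both of these lists, and leaving out a KO library gave 3 to 4 higher and 3 to 4 lower calls among the translation and insertion factors. The calls of Phb2, Tomm40, Tufm, Mtrf1l, Tbrg4, Ndufb7, Atp5g2 and Atp5a1 all ended with a GC content offset, and so did that of Cox4i1. Over the 4 libraries, the nuclear genes whose centred profile lay nearest to that of the summed members, among 3244 candidates, were Rps15a, Eif4b and Vcl, with log2 fold changes of 0.07, 0.06 and 0.07; the sum is dominated by mt-Co1, and with 4 libraries the likeness is a description only.

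**Figure D5:**
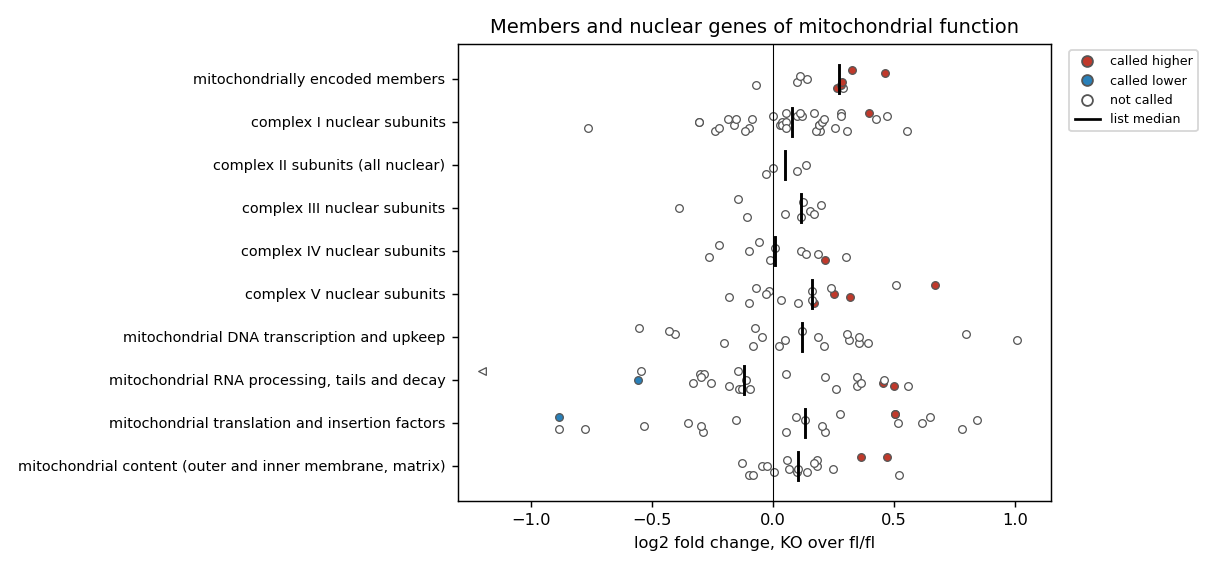
Log2 fold change, KO over fl/fl, of the members and of nuclear genes of mitochondrial function, by list; each point is a gene, red for called higher, blue for called lower and white for not called, and the black line is the list median. The members' median is 0.27, the medians of the nuclear lists lie between -0.12 and 0.16, and the arrowhead at the left edge stands for Fastkd5 at -2.69, not called.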

How the data were processed

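The deposited values are raw counts per gene, 1 table per library, per the files themselves. Per the submitters' processing notes, the tools were HTSeq 0.12.4, HISAT2 2.1.0, FastQC 0.11.7, HOMER and DESeq2, and the build was GRCm39. For the role of each tool, the strand setting, the read length and the annotation release, the record is: not given in the sources used here. The 5 rows that name no gene hold 67.3% to 67.7% of the reads listed and entered neither library sizes nor tests.

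The analysis used edgeR 4.0.16 under R 4.3.3 (filterByExpr, TMM, quasi-likelihood test, genotype as the only term, two-sided, Benjamini-Hochberg adjustment over all 13052 genes tested, called at an adjusted p under 0.05). Between libraries, edgeR's common dispersion came to a coefficient of variation of 0.125, on 2 residual degrees of freedom. CPM use TMM-scaled library sizes of the genes kept. The 95% intervals of fold changes were computed from the SE; Wilson intervals cover counting error only. At these depths 1 count is 0.139 to 0.148 CPM of assigned counts. Alternatives were DESeq2 1.42.0, other scalings, no filter, offsets for GC content and transcript length, a replicate block and leaving out each library.

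Length, GC content and nuclear copies came from GENCODE M21 transcripts, of another build, by exact windows of 50, 75 and 100 bases and by blastn 2.17.0; 12844 genes tested (98.4%) had a length and GC content. Members and gene lists were chosen with earlier results of these data known. From each nuclear list that is not a marker list, the genes named are the 2 with the smallest adjusted p and the most abundant. Alas2 and Fastkd5 were named after their values were seen. Atp5if1 was not found by symbol.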

Additional observations from a re-analysis of the deposited data

Results flagged for a closer look

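In rows of the tables that name no gene, and that no comparison above uses, 2 shares of all reads listed were higher in both KO libraries than in both fl/fl libraries. Reads that were not aligned made up 2.98% in KO and 0.936% in fl/fl (means of 2 libraries). Reads that overlapped more than a single gene and were left unassigned made up 2.94% in KO and 2.56% in fl/fl. Their part in the results on the members was not tested.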

How the results depend on the processing

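The count of 5 members called higher was 2 when scaled to the summed member counts, 2 to 6 when leaving out a library each, 7 with a GC content offset, and 0 when a coefficient of variation of 0.2 was assumed (added after the data were seen), where the calls over all genes were 620 against 2400. The count of 0 members called lower was 1 without a filter on low counts, 1 with a transcript length offset (both mt-Co1), and 0 to 1 when leaving out a library each. The 15 genes called over the other lists were 6 when scaled to the summed member counts, 5 with a GC content offset, 1 with the assumed coefficient of variation, and 1 to 29 when leaving out a library each; over all genes that range was 1158 to 3998. The log2 ratio of the member share, 0.13, was 0.33 without mt-Co1 and 0.08 to 0.18 when leaving out a library each. With TMM-scaled library sizes in place of assigned counts, the member totals overlapped between genotypes. The 5 members with a higher share of member counts were 2 without mt-Co1 and 6 to 7 when leaving out a library each. Without TMM, 1365 genes were higher and 1055 lower, against 1109 and 1291, and mt-Cytb was called higher as well. Scaled to the summed member counts, 739 genes were higher and 1594 lower. Signs turned as follows. Under a GC content offset mt-Co1 was at 0.14, mt-Rnr2 0.10, Ndufv1 -0.070, Sdhb -0.0057, Sdha 0.0042, Cox4i1 -0.0084 and Atp5b -0.021. Under a transcript length offset mt-Rnr1 was at -0.020, Atp5b -0.030 and Polg 0.050. Without TMM Sdha was at 0.024, and scaled to the summed member counts mt-Rnr1 was at -0.050 and Atp5b at -0.044. Leaving out a library each gave ranges of -0.12 to 0.33 for mt-Co2, -0.14 to 0.46 for mt-Co3, -0.0014 to 0.51 for mt-Atp6, -0.041 to 0.072 for mt-Rnr1, -0.015 to 0.22 for Ndufv1, -0.035 to 0.27 for Sdhd, -0.016 to 0.18 for Sdhb and -0.089 to 0.24 for Gfm2. The cause was not tested. Where a library is left out, only the other genotype has replicates, and the lone library is assumed to vary like them. The replicate block left 5 members called higher and 0 lower and called 2767 genes in all; same-numbered libraries deviated from their genotype means with r = -0.0078 over genes, so the numbers were not read as pairs. The 5 complex I members stayed above 0 in every alternative run. Counts of 31 to 99 limit mt-Co2, mt-Co3 and mt-Atp6.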

Other observations

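The high and low counts of Gm28437, the copy of mt-Co3, occurred within each genotype, and mt-Co3 itself had its higher count in the same libraries, 48 against 37 within KO and 46 against 31 within fl/fl. The copy of mt-Nd4, Gm28439, had 11 and 25 counts in KO, against 10 and 18 in fl/fl.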
